A study of Triticum aestivum with 96 samples.

Results

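The 200 genes described here were the steadiest transcripts of wheat flag leaves in a 48 h time course. A gene was eligible when its mean scaled count over 96 RNA-seq libraries was at least 100, which 13246 of the 139118 genes in the table met. The 200 eligible genes with the smallest standard deviation (SD) of log2(scaled count + 2) over all 96 libraries were taken. The spread itself chose the genes, so every value from these 96 libraries is given as a description, and only genes chosen in one set of libraries and read in another bear on whether stability carries over.

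The samples were whole flag leaves of the primary tiller of bread wheat (Triticum aestivum) cultivar Mace, at 2 developmental stages. Senescent leaves had visibly lost chlorophyll, and mature leaves came from plants at ear emergence. The sowings were 28 days apart in the same growth room and were sampled together, so stage and sowing batch cannot be told apart. All plants had grown in 12 h light at 20 °C and 12 h dark at 15 °C, and from dawn, Zeitgeber time (ZT) 0, were kept in continuous light at 20 °C. Leaves of 4 plants per stage were taken every 2 h from ZT45 to ZT91, and RNA of 2 leaves was pooled for each library. There were therefore 48 senescent and 48 mature libraries, with 2 per stage at each of 24 time points. The series is about circadian control of the timing of leaf senescence.

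Reference genes are transcripts whose level is taken as constant, so that other transcripts can be measured against them in quantitative PCR or in the scaling of sequencing libraries. Such genes are hard to find in leaves because the circadian clock drives daily rhythms in much of the transcriptome and because senescence dismantles chloroplasts and remobilises nutrients. Bread wheat is hexaploid: most genes exist as homoeologous copies on the A, B and D subgenomes. The identifiers of the 200 genes were not paired with gene names in the files, and none was found in the reference gene table, so no function is given and the labelled tissue was not checked against marker genes. Reads of near-identical homoeologues may be divided between copies, so the level of a single copy is uncertain.

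A scaled count is a read count that the authors multiplied by 1 factor per library. The value of a single read, recovered from the smallest steps between values, ran from 0.516 to 1.43 scaled counts. The estimated depth was 4789060 to 11831500 reads per library. The scaled counts did not add to the same total: the sum over all genes was 6285530 ± 496332 in senescent libraries and 7473830 ± 608413 in mature libraries (SD, n = 48 each). In bulk leaf RNA, fewer cells of a type and less RNA per cell cannot be told apart. A pair of mature libraries stood apart for the stable genes: the library of ZT91 replicate 1 held the value farthest from the mean for 43 of the 200 genes, and that of ZT45 replicate 2 for 26.

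The stable genes varied little on the deposited scale, which is relative between libraries. With libraries scaled to the same total, the same 200 genes had a median SD of 0.222. The other values of this paragraph are as deposited. Their SD ran from 0.106 to 0.166 with a median of 0.156 on the log2 scale, against a median of 0.362 for the 13046 other eligible genes. In 180 of the 200 genes the highest of the 96 libraries was less than 2 times the lowest, as it was in 545 of the other genes (4.18%). In all 200 it was less than 3 times the lowest, and the median ratio of highest to lowest library was 1.76. Without the pair of mature libraries that stood apart, 198 of the 200 genes stayed within a factor of 2, against 8.81% of the other genes. The spread was smaller within the senescent libraries than within the mature libraries in 167 of the 200 genes, with median SDs of 0.135 and 0.159. The other eligible genes leaned the same way, in 9437 of 13046 (72.3%). Without the pair of mature libraries the count was 147 of 200 (73.5%), with a median SD of 0.135 in senescent and 0.149 in mature leaves, and 8301 of the 13046 other genes (63.6%).

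**Figure D1:**
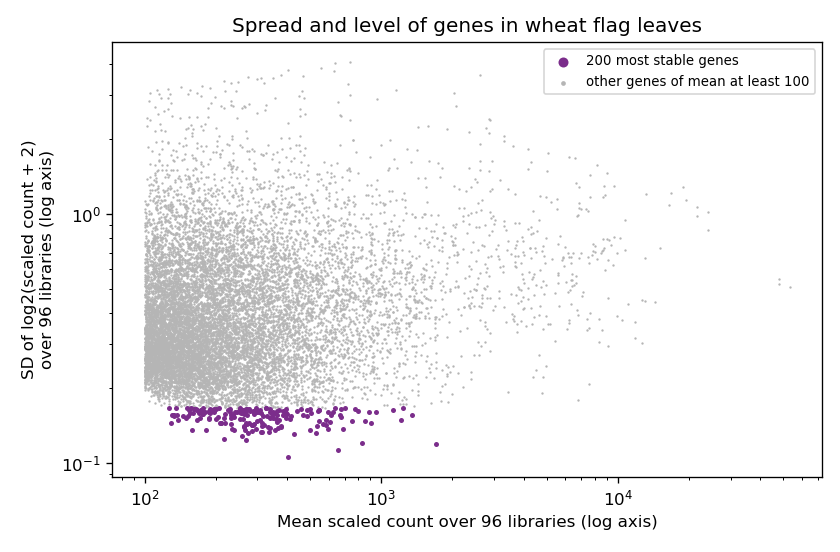
Each point is 1 eligible gene, with its mean scaled count over 96 libraries on the x axis and its SD of log2(scaled count + 2) on the y axis, both log axes. The 200 stable genes (purple) form the lower edge of the cloud at an SD of 0.106 to 0.166, and none has a mean above 1711.

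The steadiest gene was TraesMAC7D03G04371230 on chromosome 7D, with an SD of 0.106. Its scaled count was 337 at the lowest, 409.5 at the median and 479.9 at the highest in the senescent libraries, against 343, 395 and 481 in the mature libraries. Over all times, the groups overlapped over nearly their whole range. The highest senescent value was at ZT65 and the highest mature value at ZT91, in the library that stood apart. Its time-averaged level was 0.03 ± 0.02 higher in senescent leaves on the log2 scale (difference ± standard error). Per length, it averaged 26.52 FPKM in senescent and 25.98 FPKM in mature leaves; FPKM is read fragments scaled by transcript length and library.

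TraesMAC7A03G03915450 on chromosome 7A followed, with an SD of 0.112. Its scaled count had a lowest, median and highest value of 531, 637 and 741 in senescent libraries and of 586, 671 and 766 in mature libraries. The ranges overlapped, with the senescent libraries lower at both ends, and the difference was -0.08 ± 0.02. TraesMAC1D03G00472190 on chromosome 1D was next, with an SD of 0.119, and had the highest mean scaled count of the 200 genes (1711). Its senescent libraries ran from 1478 through a median of 1629 to 1919, and its mature libraries from 1521 through 1760.2 to 2137. Its SD within a stage was 0.095 in senescent and 0.12 in mature leaves, and the stage difference of -0.11 ± 0.02 was about as large as these. Among the 3 steadiest genes this was therefore the one with the clearest remaining stage difference. In mature leaves it also kept a fitted 24 h peak-to-trough difference of 0.22 ± 0.05, with a peak near 22.7 h, against 0.06 ± 0.05 in senescent leaves.

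**Figure D2:**
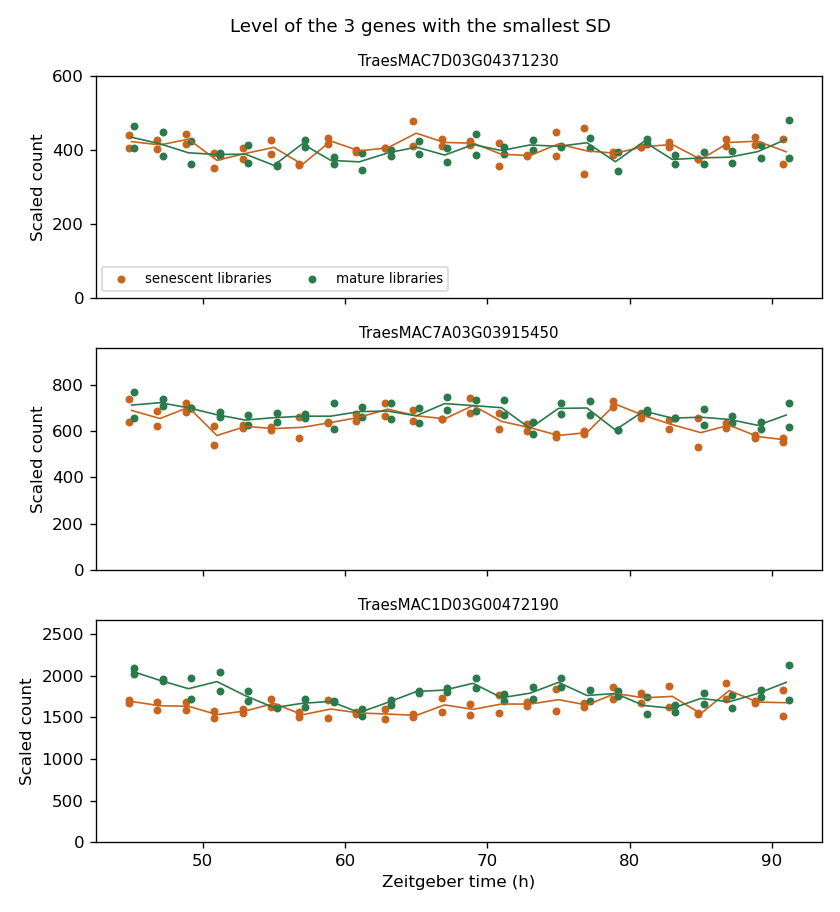
Scaled count (y axis, starting at 0) against Zeitgeber time in hours (x axis) for the 3 genes with the smallest SD; points are libraries, lines join the mean of the 2 libraries per time, senescent in orange and mature in green. The pooled ranges of the stages overlap for TraesMAC7D03G04371230, although the libraries of the stages are separate at 11 of the 24 time points (senescent above at 8, below at 3). For TraesMAC1D03G00472190 they are separate at 16 time points, with the senescent libraries below the mature libraries at 15, among them ZT45 to ZT53. With 2 libraries per stage at each time, some separation arises without any stage difference. Its rate over all genes was not computed, so these counts are descriptions. The time-averaged stage difference of TraesMAC7D03G04371230 was not called (limma adjusted p 0.26).

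The limit of the list was arbitrary. The last 2 genes inside, TraesMAC3D03G02002810 and TraesMAC4D03G02423680, and the first 2 outside, TraesMAC4A03G02199320 and TraesMAC4B03G02238550, all had an SD that rounds to 0.166. TraesMAC4D03G02423680 had scaled counts of 1023, 1203 and 1699 (lowest, median, highest) in senescent libraries and 984, 1209.7 and 2015 in mature libraries. Its highest value in each stage fell at ZT45. TraesMAC4A03G02199320, just outside, had 488, 589 and 749 in senescent libraries and 403, 579 and 748 in mature libraries. Its fitted 24 h peak-to-trough difference was 0.04 ± 0.05 in senescent leaves and 0.44 ± 0.07 in mature leaves, larger than in any gene inside the limit.

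The stable genes were moderately expressed. Their mean scaled counts had a median of 284, against 190.5 for the other eligible genes, and ran from 127 to 1711, while the other genes reached 53375. Only 45 of the 6938 eligible genes with a mean of 100 to 200 were among them (0.649%). The share was 2.74% of the 4349 genes at 200 to 500, 2.68% of the 1155 genes at 500 to 1000 and 1.12% of the 445 genes at 1000 to 2000. None of the 236 genes at 2000 to 5000 was included. Per length, their median level was 21.1 FPKM against 18.3 FPKM for the other eligible genes. The extremes were TraesMAC4D03G02453160, at 224 FPKM, and TraesMAC3A03G01447390, at 5.62 FPKM. TraesMAC4D03G02453160 had 194, 221 and 289 FPKM in senescent libraries (lowest, median, highest) and 168, 222 and 292 FPKM in mature libraries. TraesMAC3A03G01447390 had 4.43, 5.83 and 6.75 FPKM in senescent libraries and 4.10, 5.49 and 6.47 FPKM in mature libraries. In both genes the stages overlapped almost completely. Stability was thus found over a wide range of levels per length, but not among the most abundant transcripts.

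Counting error made up part of the remaining spread. With Poisson error on the estimated reads, the SD expected from counting alone had a median of 0.085 in the stable genes. It corresponded to a median of 31.7% of their variance (range 6.16% to 75.1%), against 7.77% in the other eligible genes. The ratio of scaled count to FPKM, which follows transcript length, was 1.13 times the eligible median in the stable genes and 0.998 times in the others.

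The variation over the 96 libraries was divided into stage, a 24 h rhythm per stage, a linear drift per stage, other differences between time points and differences between replicates of 1 time point. In the stable genes, differences between replicates took a median of 38.3% of the sum of squares and other time differences 36.5%. The 24 h rhythm took 10.8%, stage 4.31% and drift 2.27%. In the other eligible genes the medians were 20.9% between replicates, 21.0% for other time differences, 19.2% for rhythm, 18.3% for stage and 2.57% for drift. By degrees of freedom alone, values without any structure would on average give 50.5% to replicates and 42.1% to other time differences. They would give 4.21% to rhythm, 1.05% to stage and 2.11% to drift. The medians of the stable genes lay nearer to these shares than those of the others did. Rhythm and stage were above them and drift slightly above. These shares are averages, and the medians that structureless values would give were not computed. Replicate differences were the largest of the 5 components in 104 stable genes, other time differences in 81, rhythm in 9 and stage in 6. Since the total spread chose the genes, these shares describe them and are not tested.

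**Figure D3:**
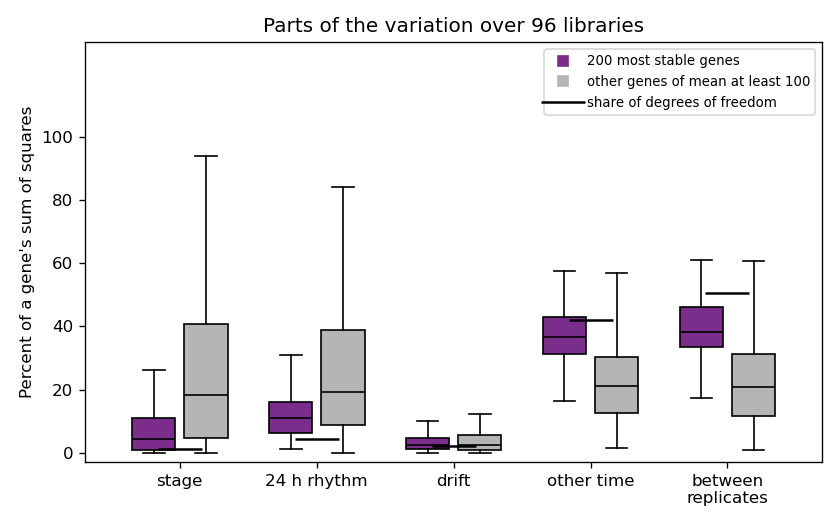
Percent of each gene's sum of squares over 96 libraries (y axis) that belongs to stage, 24 h rhythm, drift, other time differences and differences between replicates; boxes span the quartiles with the median, whiskers reach the farthest gene within 1.5 box lengths, the 200 stable genes are purple and other eligible genes grey. Black bars give the share of degrees of freedom; medians of the stable genes are 10.8% for rhythm and 4.31% for stage, against 19.2% and 18.3% in the other genes.

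Small stage differences remained in many stable genes. Senescent minus mature, the time-averaged log2 difference ran from -0.23 to 0.20 with a median of -0.0038, and 97 of the 200 were above 0. It was under 0.1 in size in 147 genes (73.5%) and under 0.2 in 99.5%, all but TraesMAC7B03G04123510, against 18.1% and 36.1% of the other eligible genes. With limma (adjusted p under 0.05 over 42428 genes), 48 stable genes (24%) were called higher in senescent leaves, where 35.2% of all tested genes were. A further 51 (25.5%) were called lower, where 34.6% of all genes were. These counts come from the libraries that chose the genes, and nothing about the list is read from them. The 99 called genes differed by 0.057 to 0.23 in size, with a median of 0.10. The standard error had a median of 0.03 in the 200 genes, against 0.049 in the other eligible genes. The small spread that chose the genes enters these standard errors, so they do not give the resolution for other genes.

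The largest increase was in TraesMAC1A03G00096720 on chromosome 1A. Its scaled counts were 597, 726 and 862 (lowest, median, highest) in senescent libraries and 511, 646 and 761 in mature libraries, a difference of 0.20 ± 0.03, or 1.15-fold. TraesMAC4D03G02460700 followed, with 347, 398 and 495.9 in senescent and 288, 353 and 402 in mature libraries, a difference of 0.19 ± 0.02. Both genes overlapped between stages. The largest decrease was in TraesMAC7B03G04123510 on chromosome 7B, with 618, 731 and 867 in senescent and 735, 859.9 and 1055 in mature libraries. Its difference was -0.23 ± 0.02, a level of 0.853 times that in mature leaves. TraesMAC3B03G01726170 had 184, 246 and 299 in senescent and 222, 279 and 339.9 in mature libraries, a difference of -0.18 ± 0.03. When libraries were scaled to the same total of all genes instead, the 2 decreases became 0.02 and 0.06, so their direction depends on the scaling.

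The sign of the stage difference of the whole list followed the scaling of the libraries. As deposited, the median senescent minus mature difference was -0.0038 for the stable genes and -0.02 for all eligible genes. With every library scaled to the same total, the same 200 genes ran from 0.02 to 0.45, all above 0, with a median of 0.24, while the median of all eligible genes moved to 0.23. Of the 200 genes, 198 were then called higher in senescent leaves (60% of all tested genes) and 0 lower (18.1%). Rhythm was called in 172 in senescent leaves (74.3% of all genes) and 89 in mature leaves (57.8%), a difference in rhythm in 15 (11.3%), and drift in senescent leaves in 86 (29.2%). Measured against the shifted median of the eligible genes, the stable genes again lay close to it. The list itself also followed the scaling: choosing 200 genes after scaling to the total gave 29 of the same genes. The SD of the log2 ratio of gene pairs is a measure that scaling enters only through the choice of the list. For pairs within the list chosen on the deposited values its median was 0.213, and for the list chosen on total-scaled values it was 0.232. Each list was chosen for small spread on its own scale, so these values do not rank the scalings.

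The mean of the 200 genes gives a position for each library. Relative to each gene's own mean, it lay between -0.064 and 0.12 on the log2 scale as deposited, with an SD of 0.030 over the 96 libraries. The first 3 time points were higher in mature leaves: at ZT45 to ZT49 the mean deviation was 0.012 ± 0.029 in senescent and 0.070 ± 0.031 in mature libraries (SD, n = 6 each). At ZT51 to ZT91 it was -0.0049 ± 0.025 in senescent and -0.0068 ± 0.021 in mature libraries (SD, n = 42 each). After scaling to the total, the same means spread from -0.33 to 0.32 and averaged 0.12 in senescent and -0.12 in mature libraries. Scaling every library to the mean of the stable genes gave 15148 genes of the whole table called higher and 14481 called lower in senescent leaves. As deposited, 14948 and 14676 were called. The genes were chosen as steady on the deposited scale, so this closeness follows from the choice and tests neither scaling.

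**Figure D4:**
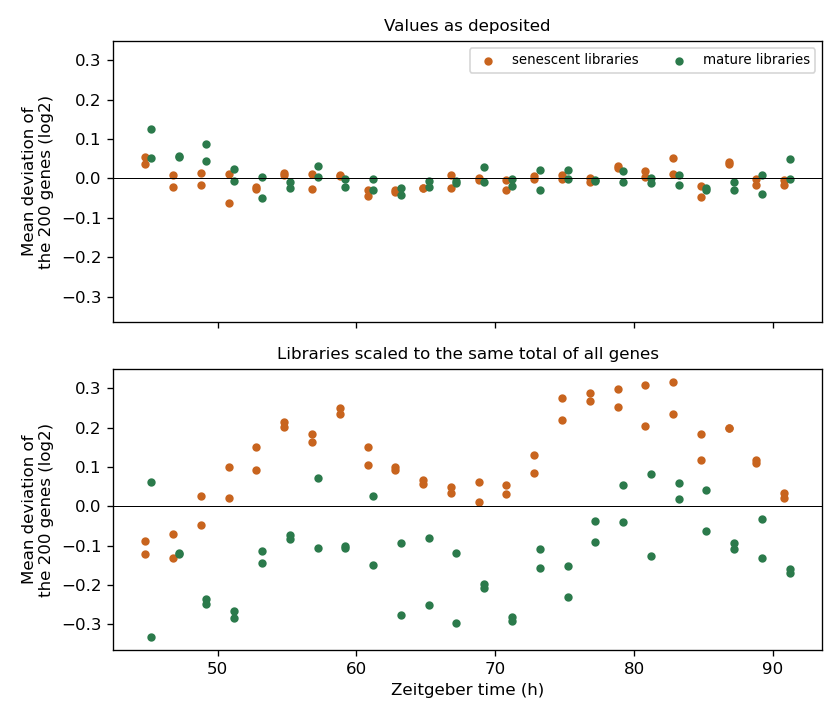
Mean log2 deviation of the 200 stable genes from their own means (y axis) in each library against Zeitgeber time in hours (x axis), senescent libraries in orange and mature libraries in green. As deposited (upper panel) the means lie between -0.064 and 0.12; with libraries scaled to the same total (lower panel) they run from -0.33 to 0.32, and senescent libraries average 0.12 against -0.12 in mature libraries.

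Weak 24 h rhythms remained. The fitted peak-to-trough difference of the stable genes had a median of 0.12 in senescent and 0.13 in mature leaves, against 0.45 and 0.41 in the other eligible genes. In senescent leaves 72 stable genes (36%) were called rhythmic, where 63.9% of all tested genes were. In mature leaves 41 (20.5%) were called, where 49.7% of all genes were. The rule used these libraries, so the shares are descriptions. Called genes had peak-to-trough differences of 0.14 to 0.36 in senescent leaves, with a median of 0.20. In mature leaves these were 0.18 to 0.39, with a median of 0.24. Of the 200 genes, 18 were called in both stages, 54 in senescent leaves alone, 23 in mature leaves alone and 105 in neither. Neither stage, rhythm nor drift was called in 54 genes. The matching shares of all tested genes were not computed, so these counts describe the list alone. A gene that was not called is not thereby shown to be constant.

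The peaks of the called genes were spread over the cycle in senescent leaves and gathered late in mature leaves. With ZT taken modulo 24 h, the 72 genes of senescent leaves peaked in numbers of 8, 18, 12, 8, 14 and 12 in successive 4 h windows from 0 h. These were 11.1%, 25%, 16.7%, 11.1%, 19.4% and 16.7% of the 72. The 10252 other eligible genes called rhythmic in senescent leaves divided into 9.67%, 18.5%, 14.4%, 6.9%, 27.8% and 22.8%. Of the 41 genes of mature leaves, 22 (53.7%) peaked between 20 and 24 h, as did 35.5% of the other eligible genes called rhythmic there. The mature libraries in which the mean of all stable genes was raised, ZT45 to ZT49, lie at 21 to 25 h of that clock, and the contribution of these libraries to the peak times was not tested.

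The strongest rhythm in senescent leaves was that of TraesMAC5B03G02882390 on chromosome 5B. Its scaled counts were 572, 669 and 857 (lowest, median, highest) in senescent and 585, 701 and 829 in mature libraries. The peak-to-trough difference was 0.36 ± 0.04 in senescent and 0.20 ± 0.05 in mature leaves, with peaks near 5.03 h and 5.76 h. In mature leaves the largest value was that of TraesMAC3A03G01419130 on chromosome 3A, with 298, 396 and 474 in senescent and 306, 395 and 524 in mature libraries. It was 0.17 ± 0.06 in senescent and 0.39 ± 0.06 in mature leaves, with peaks near 1.64 h and 0.995 h. In each gene the ranges of the stages overlapped, and the timing of the peak lay within about an hour between stages. A difference in rhythm between stages was called in 9 stable genes (4.5%), where 11.5% of all genes were called.

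Drift over the 48 h was small. Its size had a median of 0.065 in senescent and 0.081 in mature leaves on the log2 scale, against 0.21 and 0.16 in the other eligible genes. In senescent leaves 12 stable genes (6%) were called, 8 of them upward, where 19.8% of all tested genes were called. The 12 drifts were 0.18 to 0.41 in size. In mature leaves 2 genes (1%) were called, where 4.33% of all genes were called. The largest drift in senescent leaves was 0.41 ± 0.08 in TraesMAC6B03G03597860 on chromosome 6B. Its scaled counts were 330.1, 481 and 615 in senescent libraries, the lowest at ZT45 and the highest at ZT91, and 404, 488 and 599.9 in mature libraries. In mature leaves the same gene drifted by 0.18 ± 0.08 and was not called. The 2 genes called in mature leaves went down. TraesMAC4A03G02113120 drifted by -0.13 ± 0.06 in senescent and by -0.33 ± 0.10 in mature leaves. Its scaled counts were 512, 574 and 753 in senescent libraries and 454, 599 and 833 in mature libraries, with the highest in the ZT45 library that stood apart, and without the pair of libraries that stood apart its drift in mature leaves was -0.29. TraesMAC7B03G04169250, singled out after its value was seen, drifted by -0.04 ± 0.07 in senescent and by -0.26 ± 0.07 in mature leaves. A difference in drift between stages was called by limma in 0 stable genes (2.42% of all genes), and 15 had an unadjusted p under 0.05. The share of all genes at that unadjusted threshold was not computed, so nothing is read from the 15.

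Stability carried over to libraries that had not chosen the genes. The same rule was applied to the libraries of replicate 1 alone and the 200 chosen genes were read in the libraries of replicate 2, and the reverse. Each library was a separate pool of leaves. The genes chosen in replicate 1 had a median SD of 0.161 in replicate 2 and 0.155 where they were chosen, and 156 of them fell within the lowest 5% of eligible genes in replicate 2. Those chosen in replicate 2 had a median of 0.171 in replicate 1 and 0.146 where chosen, with 150 in the lowest 5%. All eligible genes had held-out medians of 0.348 in replicate 2 and 0.370 in replicate 1. The 2 lists shared 89 genes with each other, and 145 and 134 genes with the list from all libraries.

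The held-out libraries also allowed tests that the choice had not used. Of the genes chosen in replicate 1, limma called 59 (29.5%) for a stage difference in replicate 2, where 57.8% of all tested genes were called. Of those chosen in replicate 2, it called 57 (28.5%) in replicate 1, where 58.9% of all genes were called. The median size of the stage difference was 0.071 and 0.069 in the lists, against 0.25 and 0.28 in all tested genes. Its largest size in these lists was 0.28 and 0.33. With libraries scaled to the total, the lists had 189 and 175 genes called for stage, where 68.6% and 68.5% of all genes were called. Rhythm in senescent leaves was called in 26 and 25 genes of the lists, where 43.6% and 45.6% of all genes were called. In mature leaves it was called in 11 genes of each list, where 28.8% and 30.6% of all genes were called. In the values as deposited, the share of the lists called was thus lower than that of all genes in each of these tests. With libraries scaled to the total it was higher for stage (94.5% and 87.5%), and every such call was higher in senescent leaves. The lists were chosen on the deposited scale, where library totals were larger in mature leaves. Genes flat on that scale shift upward in senescent leaves when totals are made equal. These stage calls therefore follow from the scaling and do not test the lists. With libraries scaled to the total, rhythm in senescent leaves was called in 58.5% and 53.5% of the lists, near the 55.3% and 55% of all genes. In mature leaves it was then called in 14% of each list, where 33.8% and 35.6% of all genes were called. On the deposited scale, genes chosen as stable were still not free of stage difference or rhythm.

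The rule was also applied within 1 stage and read in the other. The 200 genes chosen in the senescent libraries alone had a median SD of 0.119 there and 0.182 in the mature libraries, where all eligible genes had 0.321. The 200 genes chosen in the mature libraries alone had 0.148 there and 0.143 in the senescent libraries, where all eligible genes had 0.268. These lists shared 55 genes with each other and 71 and 102 genes with the list from both stages. Between stages, the genes chosen in senescent libraries differed by -0.63 to 0.97 and those chosen in mature libraries by -0.65 to 0.91. The median differences were 0.04 and -0.03, and 5 and 4 genes of these lists differed by at least 0.5 in size. A gene that was flat over 48 h within one stage could therefore differ nearly 2-fold between stages, although few did. Choosing over both stages leaves out such genes by its rule, so their absence from that list is no result.

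Averages of several genes were steadier than a single gene. For the genes chosen in replicate 1 and read in replicate 2, the SD over the 48 held-out libraries was 0.098 for the top gene, 0.078 for the mean of the top 3, 0.043 for the top 10, 0.041 for the top 20 and 0.029 for all 200. For those chosen in replicate 2 and read in replicate 1 it was 0.11, 0.091, 0.052, 0.039 and 0.032. Most of the gain came by 10 genes. The mean of all 200 differed between senescent and mature libraries by 0.0061 and -0.014. Averages of other eligible genes were not computed. The median stage difference of all eligible genes was itself -0.02 over the 96 libraries as deposited, so the small difference is not read as a trait of the lists. These values are on the deposited scale: after scaling to the total, the mean of the 200 genes chosen in all libraries had an SD of 0.165 over the 96 libraries, in place of 0.030. The Pearson correlation of 2 stable genes over 96 libraries had a median of 0.031 over 19900 pairs, with quartiles of -0.084 and 0.15. All pairs of eligible genes had a median of 0.0072 with wider quartiles of -0.25 and 0.27. All these pairs share the libraries and their scaling factors.

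**Figure D5:**
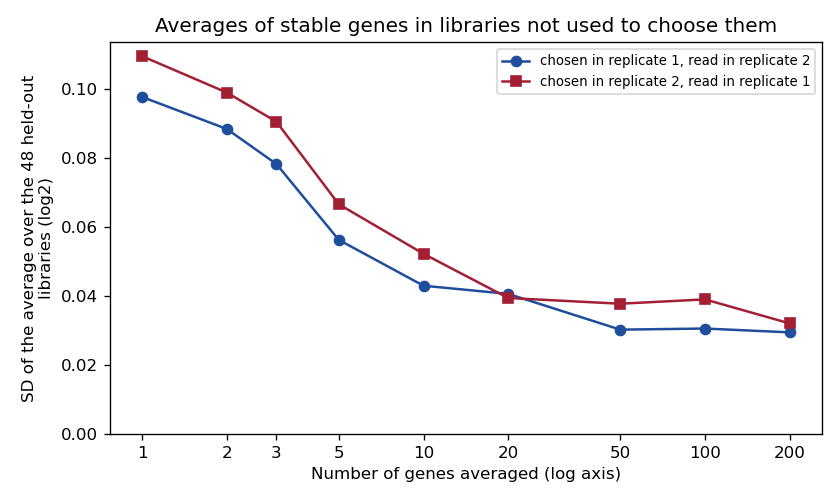
SD over 48 held-out libraries (y axis, log2 units) of the mean of the top stable genes against the number of genes averaged (x axis, log axis); blue, chosen in replicate 1 and read in replicate 2; red, chosen in replicate 2 and read in replicate 1. The SD is 0.098 and 0.11 for 1 gene, 0.043 and 0.052 for 10 genes, and 0.029 and 0.032 for 200 genes.

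The stable genes were spread over the genome. The A subgenome held 66 of them (33%, exact 95% interval 26.5% to 39.98%), the B subgenome 70 (35%, 28.4% to 42.0%) and the D subgenome 64 (32%, 25.6% to 38.9%). The other eligible genes divided into 33.8%, 32.9% and 33.3%, so no difference between subgenomes was detectable with 200 genes. All 21 chromosomes held stable genes, with 6 to 15 on each. By homoeologous group, 40 of 1818 eligible genes of group 1 were stable (2.20%, 1.58% to 2.98%), the highest share, against 21 of 1765 of group 7 (1.19%, 0.738% to 1.81%), the lowest. These intervals overlap and cover counting error only, and homoeologous copies are not independent of each other. The subgenome and chromosome were read from the identifiers.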

How the data were processed

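Whole flag leaf RNA of 48 senescent and 48 mature libraries was sequenced. The submitters' processing notes name bcl2fastq 2.17, STAR, Cufflinks and Cuffnorm, and the genome build and annotation are not given in the sources used here. The deposited values are scaled counts, a signal rather than raw counts: per library at least 99.96% of values were whole multiples (within 0.1) of 1 step, so the authors had multiplied reads by 1 factor per library. The deposited FPKM values carry the same factor, by comparison of the tables. The second count table and the second FPKM table repeat columns of the first with 0 differing values and were not used.

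The 200 genes were chosen by the SD of log2(scaled count + 2) among genes with a mean of at least 100. The members and lists were chosen with earlier results of these data known. limma 3.58.1 (R 4.3.3, trended variance) was fitted to genes with a mean of at least 10, with Benjamini-Hochberg adjustment over all of them and a threshold of 0.05. The fit of 96 libraries had stage and, per stage, a 24 h cosine and sine and linear time, and fits of 48 libraries gave rhythm and drift within a stage. The samples are separate leaf pools. The p-values rest on the spread of libraries around the fitted curve. That spread holds differences between pools and departures of time points from the curve. It does not hold the spread between sowings, because stage and sowing batch cannot be told apart. Peak-to-trough standard errors are those of the cosine and sine terms. Scripts were tested on simulated data. Intervals are exact (Clopper-Pearson) at 95%. Genes were named by rule: the 3 smallest SDs, ranks next to the limit, extremes of FPKM, the 2 largest increases and 2 largest decreases by stage, and the largest rhythm and drift in each stage. Replicate numbers did not pair the stages, as the closing section shows. Alternatives to the scaling, pseudocount, filter, period, spread measure and libraries are given there.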

Additional observations from a re-analysis of the deposited data

Results flagged for a closer look

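A rhythm that differed between stages was called by limma in 9 of the 200 stable genes, by the test of the difference itself in all 96 libraries, where 11.5% of all tested genes were called. In these 9 genes the fitted peak-to-trough difference ran from 0.056 to 0.36 in senescent leaves, with a median of 0.19, and from 0.039 to 0.30 in mature leaves, with a median of 0.16. Within a stage, 6 of them were called rhythmic in senescent leaves alone and 3 in mature leaves alone. These 3 were TraesMAC1A03G00151060, TraesMAC5D03G03037960 and TraesMAC1D03G00544800, identified after their values were seen. The largest contrast, also singled out afterwards, was in TraesMAC6A03G03412210, with 0.36 in senescent and 0.039 in mature leaves. The count was 0 without either replicate number, where the share of all genes called also fell, to 2.19% without replicate 1 and 1.56% without replicate 2. In these fits 18 and 4 stable genes had an unadjusted p under 0.05, and the share of all genes at that threshold was not computed. The count was 5 without ZT45 and ZT91 (9.74% of all genes) and 6 without the pair of mature libraries that stood apart (10.6%). It was 1 at a period of 26 h (4.9%) and 15 with libraries scaled to the total (11.3%). The libraries used are those that chose the genes, so the count is a description.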

How the results depend on the processing

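Of 124 alternative values for the counts and spreads, 92 stayed within 1.5 times the reported value (within 1 SD for the median SD) and 32 did not. Scaling libraries to the same total moved most: 29 of the 200 genes were kept, the median SD was 0.222, 198 genes were called higher and 0 lower in senescent leaves, 172 and 89 were rhythmic in senescent and mature leaves, 15 differed in rhythm, 86 drifted in senescent leaves, and 189 and 175 genes of the held-out lists differed by stage. TraesMAC7B03G04123510 and TraesMAC3B03G01726170 then reversed, to 0.0191 and 0.0633. The shares of all tested genes called on this scale were given with these counts in the Results. Of the 200 genes, 115 were kept with the median absolute deviation, 73 with the SD corrected for its trend over level, 71 in senescent libraries alone and 102 in mature libraries alone. Leaving out either replicate number kept 134 to 145 genes and gave 21 to 26 called higher, 31 to 33 lower, 18 to 21 rhythmic in senescent and 5 to 9 in mature leaves, 0 with a different rhythm, 0 to 1 drifting in senescent and 0 in mature leaves. These fits hold fewer libraries, and the shares of all tested genes called also fell. Without replicate 1 and without replicate 2, these shares were 29.1% and 29.4% for higher and 28.7% and 29.5% for lower. For rhythm they were 43.6% and 45.6% in senescent leaves and 28.8% and 30.6% in mature leaves. For drift they were 8.02% and 5.84% in senescent leaves and 0.0664% and 0.574% in mature leaves. Without ZT45 and ZT91, 5 genes differed in rhythm and 1 in drift, a period of 26 h gave 1 differing in rhythm, and scaling to the mean of the stable genes gave 0 drifting in mature leaves. In that order, the matching shares of all tested genes were 9.74%, 2.72%, 4.9% and 3.91%. The cause of these changes was not tested. With the replicate number as a replicate block, 48 genes were higher, 51 lower, 71 and 41 rhythmic in senescent and mature leaves, 8 different in rhythm, 12 and 2 drifting, and 0 different in drift. In the same order, the shares of all tested genes were 35.2%, 34.6%, 63.7%, 49.5%, 11.4%, 19.6%, 4.2% and 2.41%. The replicate numbers were no pairing: replicate differences correlated between stages by -0.44 to 0.34 over 24 time points (median -0.04), above 0.1 in 7. Without the pair of mature libraries that stood apart, an alternative chosen after seeing the data, 158 genes were kept, 46 were called higher, 49 lower, 72 and 47 rhythmic in senescent and mature leaves, 6 different in rhythm, and 12 and 3 drifting. For these called counts, in the same order, the shares of all tested genes were 35.4%, 34.6%, 63.9%, 51.6%, 10.6%, 19.8% and 6.1%. Planned count-based tests and scalings were not run, because the deposited values are not counts. A gene with a mean near 100 carries counting error that limits how small its spread can be.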
